A study of Mus musculus with 21 samples.

Results

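The Notch pathway was examined through 10 genes, the ligands Jag1, Dll1 and Dll3, the receptors Notch1, Notch2 and Notch3, the receptor-modifying enzyme Lfng, and the transcriptional targets Hes1, Hes5 and Hey1. These members were chosen by name, through the probe sets that the array annotation assigns to these genes, and each mutant was set against the control littermates of its own line. The 10 genes had 17 of the 45101 probe sets on the array, of which 15 passed the filter on low signal, and all 10 were among the 13850 genes tested. By RefSeq, Notch1 and Jag1 lie on chromosome 2, Notch2 and Hey1 on 3, Hes5 on 4, Lfng on 5, Dll3 on 7, Hes1 on 16, and Notch3 and Dll1 on 17.

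The tissue was rostral cerebral cortex, dissected from mouse embryos of embryonic day 14, and each of the 21 samples was hybridized to an Affymetrix array of its own. The mutants carried the Pax6 alleles Sey (Small-eye), Leca4 or Leca2, and the study asked what the parts of the paired domain of Pax6 do in neurogenesis and proliferation. Pax6 is a transcription factor of cortical progenitors with a paired domain and a homeodomain. Sey embryos came from a C57BL/6J x DBA/2J (B6D2F1) background, with 4 mutant and 3 control arrays, and the Leca4 (3 mutant and 4 control arrays) and Leca2 (4 mutant and 3 control arrays) embryos were of strain 129 S6. The labels call the animals untreated and give neither the zygosity of the mutants nor litters. The labels call the arrays of a group biological replicates and nothing says how they were collected, so the spread behind the p-values is that between these samples, which may be technical in part.

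Notch signalling works between touching cells. A ligand of the Delta or Jagged type on one cell binds a Notch receptor on its neighbour, the receptor is cut, and its intracellular part enters the nucleus and, with the DNA-binding protein RBPJ, turns on genes of the Hes and Hey families. Hes proteins repress proneural genes such as Neurog2, which in turn activate Delta ligands, so that in the developing cortex the pathway keeps radial glia, the stem cells of the ventricular zone, undifferentiated beside cells that begin to become neurons.

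The medians of the arrays on the log2 scale ran from 6.03 to 6.07 for Sey, from 6.25 to 6.26 for Leca4 and from 6.11 to 6.18 for Leca2. Levels were compared only within a line. Pax6 itself, measured by the probe set with its highest mean, rose in all 3 mutants, by 0.56 ± 0.09 in Sey, 0.49 ± 0.09 in Leca4 and 0.93 ± 0.09 in Leca2 (log2 change ± SE; adjusted p = 0.000184, 0.00276 and 1.1e-05 in limma). An array of this kind reads the transcript and not the altered protein, so this does not check the labels. Averaged over its probe sets, the Leca4 change of Pax6 was 0.22 and not called (adjusted p = 0.0893). All 19 radial glia markers other than the genes studied here were above the filter level on at least 1 array of every group. Of 7 choroid plexus markers, Kl, Aqp1 and Kcne2 were at or below it in every group. The other 4 passed the filter, and none of them was called in any line. By Xist and a Y-linked gene, 1 of 4 Sey mutants and all 3 Sey controls were male, as were 2 of 3 Leca4 mutants and 3 of 4 Leca4 controls, and 2 of 4 Leca2 mutants and 0 of 3 Leca2 controls.

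A gene is called, and said to rise or fall, at an adjusted p under 0.05 in limma over all 13850 genes. In Sey mutants, Notch1, Dll3 and Lfng rose and Jag1 fell. In Leca4 mutants, Jag1, Dll3 and Notch3 rose. No member was called in Leca2 mutants in limma, where Dll1 and Dll3 had unadjusted p of 0.0326 and 0.0307 and the smallest adjusted p was 0.644. That made 4 of 10 members called in Sey, beside 20.2% of all genes tested, 3 of 10 in Leca4, beside 5.62%, and 0 of 10 in Leca2, beside 0.477%. By direction, 3 members rose in Sey beside 10.7% of all genes and 1 fell beside 9.41%, and in Leca4 3 rose beside 3.39% and none fell beside 2.24%. The median change of the members was 0.18 in Sey, 0.18 in Leca4 and -0.05 in Leca2, against -0.00, 0.01 and 0.01 over all genes.

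Groups that did not overlap gave another count, with 5 members in Sey beside 31% of all genes and 4 in Leca4 beside 15.3%. All mutant arrays lay above all controls for 4 members in Sey (Notch1, Notch2, Dll3 and Lfng), beside 16.5% of all genes, and below them for Jag1, beside 14.5%. In Leca4 they lay above for 4 members (Notch2, Notch3, Jag1 and Dll3), beside 8.25%, and for none below, beside 7.03%. In Leca2 all 10 members overlapped, beside 6.6% of genes without overlap, 3.26% with the mutants above and 3.34% with the mutants below. RNA came from dissected tissue, so fewer cells of a type and less RNA per cell cannot be told apart in any of these changes.

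**Figure D1:**
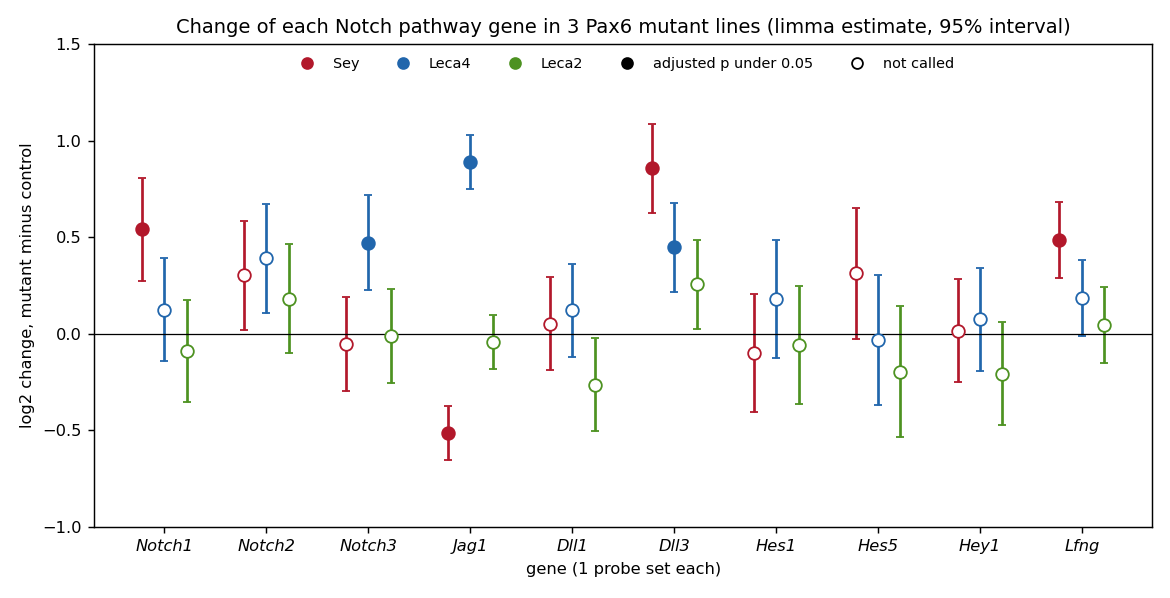
Log2 change of each member, mutant minus control littermates, with its 95% interval, for Sey, Leca4 and Leca2. Jag1 lies at -0.52 in Sey, at 0.89 in Leca4 and at -0.04 in Leca2, and the Hes and Hey targets lie near 0 or have intervals that cross it in each line.

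Stretches of promoter sequence were available from RefSeq for 8 of the 10 members on assembly GRCm38.p6, with 9 promoters since Dll1 has 2 starts. Each covers 250 bases before to 50 bases after the annotated start. Hes1 and Hey1 are named only. Printed are the promoters of the members that changed in Sey and hold one of the motifs searched, and of the target Hes5, to show where these letters stand. Capitals mark GTGGGAA, the core that RBPJ binds, and CAGCTG, an E-box of the kind that proneural proteins bind, each searched on both strands. GTGGGAA on the opposite strand reads TTCCCAC. The letters CAGCTG are their own reverse complement, and matches of the 2 motifs did not overlap.
Jag1 (chr2:137116471-137116770, minus strand): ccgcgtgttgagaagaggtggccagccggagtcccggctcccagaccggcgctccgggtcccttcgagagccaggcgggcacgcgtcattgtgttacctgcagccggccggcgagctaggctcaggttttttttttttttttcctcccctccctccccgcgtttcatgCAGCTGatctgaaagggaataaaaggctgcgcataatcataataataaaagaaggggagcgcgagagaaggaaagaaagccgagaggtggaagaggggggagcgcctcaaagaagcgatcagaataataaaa
Dll3 (chr7:28301736-28302035, minus strand): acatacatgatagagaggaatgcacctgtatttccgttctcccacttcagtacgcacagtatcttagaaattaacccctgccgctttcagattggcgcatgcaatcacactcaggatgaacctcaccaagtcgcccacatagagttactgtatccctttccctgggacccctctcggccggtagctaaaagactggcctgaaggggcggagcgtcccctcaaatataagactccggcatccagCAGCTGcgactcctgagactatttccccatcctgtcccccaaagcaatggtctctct
Lfng (chr5:140607091-140607390, plus strand): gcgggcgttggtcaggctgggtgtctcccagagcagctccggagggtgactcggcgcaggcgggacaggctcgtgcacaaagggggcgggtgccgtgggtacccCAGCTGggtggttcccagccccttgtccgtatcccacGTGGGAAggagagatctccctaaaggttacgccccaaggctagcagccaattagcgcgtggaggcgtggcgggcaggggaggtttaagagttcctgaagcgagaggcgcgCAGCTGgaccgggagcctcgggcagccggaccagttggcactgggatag
Hes5 (chr4:154960673-154960972, plus strand): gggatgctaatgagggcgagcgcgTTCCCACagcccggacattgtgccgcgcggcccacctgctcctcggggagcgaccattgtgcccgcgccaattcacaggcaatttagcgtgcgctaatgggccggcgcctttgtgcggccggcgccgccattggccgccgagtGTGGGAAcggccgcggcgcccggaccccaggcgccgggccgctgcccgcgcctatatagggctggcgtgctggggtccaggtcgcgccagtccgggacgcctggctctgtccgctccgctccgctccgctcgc

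GTGGGAA stood in 2 of the 9 member promoters, with 2 matches in that of Hes5, which began 83 and 226 bases before the start, and once in that of Lfng, 109 bases before it. Of all 32851 promoters of the table, 6.38% hold it. CAGCTG stood in 4 of the 9, in those of Jag1 (82 bases before the start), Dll3 (7 bases before), Lfng (146 bases before and 1 base after the start) and in 1 of the promoters of Dll1 (132 bases before), and 16.3% of all promoters hold it. A match describes letters and no site, and a window without one says only that these letters are not in it. Of the 4 genes that changed in Sey, Jag1, which fell, and Dll3 and Lfng, which rose, hold CAGCTG, and Notch1 holds neither motif. Dll1, not called in any line, holds CAGCTG too, and Hes1 and Hey1 had no promoter to search. A link between these letters and the changes was not tested.

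The ligand Jag1, a Jagged-type ligand, went opposite ways in the Sey and Leca4 mutants. In Sey mutants its log2 values were 7.35, 7.46, 7.16 and 7.30, against 7.80, 7.94 and 7.755 in the controls. In Leca4 mutants they were 9.12, 9.10 and 9.20, against 8.23, 8.27, 8.21 and 8.29 in the controls. Every Sey mutant array was below every Sey control, and every Leca4 mutant array was above every Leca4 control, with a narrow spread in each Leca4 group. Sey mutants averaged 7.32 ± 0.13 (SD, n = 4) and Sey controls 7.83 ± 0.10 (SD, n = 3), a 1.43-fold lower level (change -0.52 ± 0.07, SE; adjusted p = 1.4e-05 in limma). Leca4 mutants averaged 9.14 ± 0.05 (SD, n = 3) and Leca4 controls 8.25 ± 0.04 (SD, n = 4), a 1.85-fold higher level (change 0.89 ± 0.07, SE; adjusted p = 6.62e-08 in limma). The only male Sey mutant, replicate 2, read 7.46, the highest of the mutants and below all 3 male controls.

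In Leca2 mutants Jag1 read 8.09, 7.87, 8.06 and 8.06, against 8.07, 8.04 and 8.09 in Leca2 controls. The groups overlapped, replicate 2 lay below the other mutants, and the change was -0.04 with a 95% interval from -0.18 to 0.10 (adjusted p = 1 in limma). The difference between the changes, first-named line minus the other, was -1.40 ± 0.09 for Sey and Leca4 (SE; adjusted p = 1.19e-08), between Sey and Leca2 -0.47 ± 0.09 (SE; adjusted p = 0.00393) and between Leca4 and Leca2 0.93 ± 0.09 (SE; adjusted p = 5.8e-06), all in limma. The Sey and Leca2 difference was -0.36 and not called (adjusted p = 0.0608) where the probe sets of a gene were averaged.

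A second Jag1 probe set, 1421106_at, gave a rise of 0.44 in Leca4 with overlapping groups (adjusted p = 0.0479 in a limma fit over every probe set), at 6.65 ± 0.32 in mutants and 6.21 ± 0.12 in controls (SD, n = 3 and 4). In Sey all 4 mutant and all 3 control arrays read this probe set at or below the filter level, so it gives no fold there. The third probe set, 1421105_at, was at or below the filter level on all 21 arrays. Jag1 lies on chromosome 2, as does Pax6, with 226 tested genes between them. Of its 20 tested neighbours, the next 10 on each side, 3 rose and 2 fell in Sey mutants, beside 10.7% and 9.41% of all genes. In Leca4 2 of them rose, beside 3.39%, and none was called in Leca2, beside 0.477%.

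**Figure D2:**
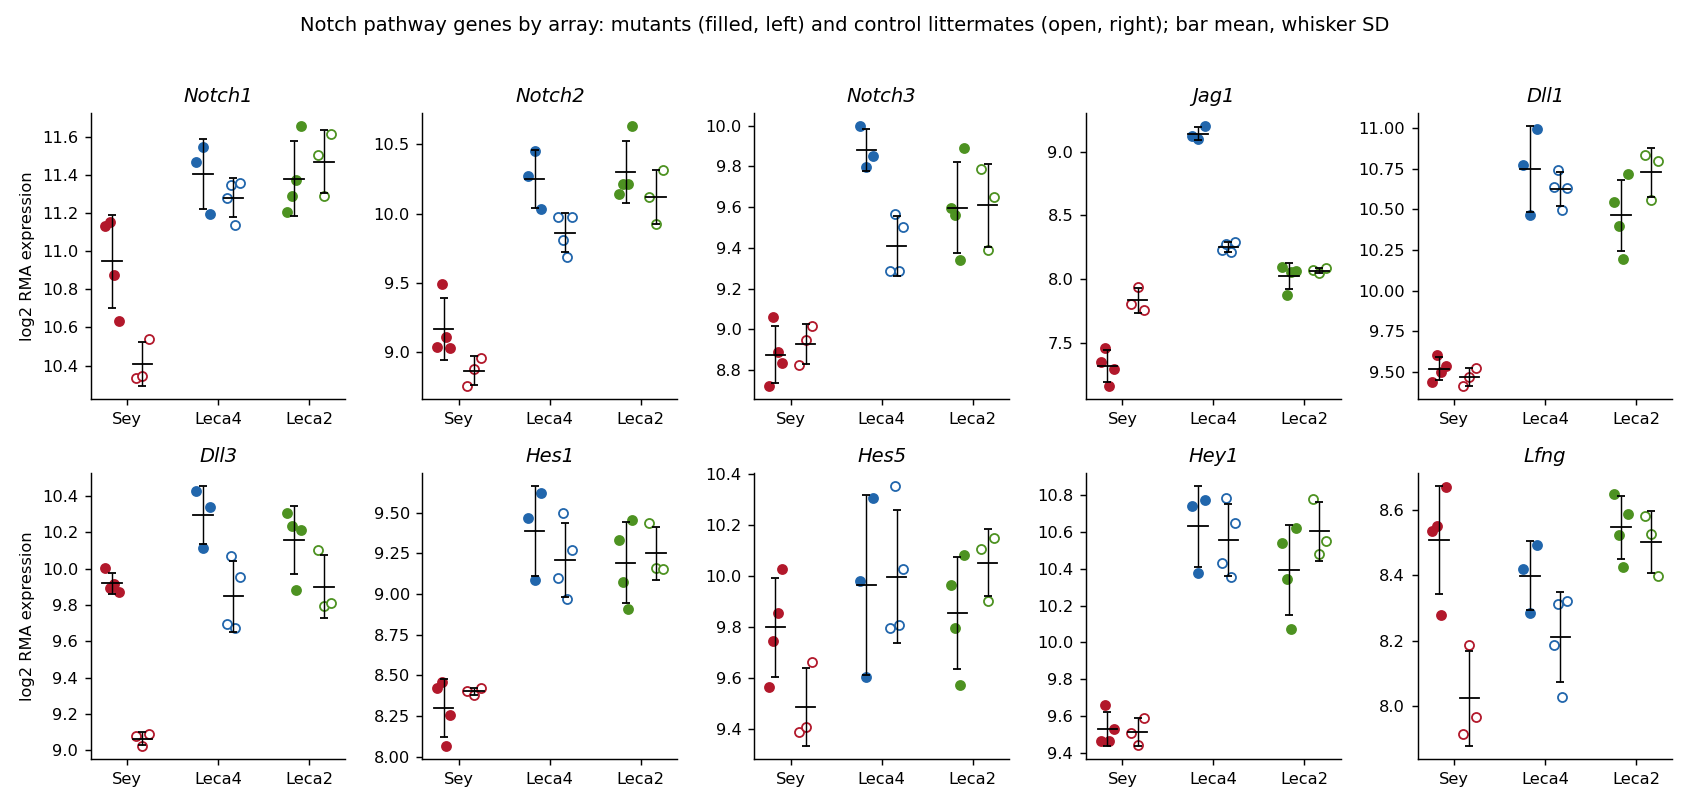
Log2 expression of the 10 members on each array, by line, with mutants as filled points left of the controls as open points and bars for the mean ± SD. Jag1 separates downward in Sey and upward in Leca4, and Dll3 separates upward in Sey and Leca4.

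Dll3, a Delta-type ligand that does not activate receptors on neighbouring cells and is known to act within the cell, rose in Sey and Leca4. Its values in Sey mutants were 10.002, 9.89, 9.91 and 9.87, against 9.08, 9.02 and 9.09 in the controls. In Leca4 mutants they were 10.43, 10.12 and 10.34, against 9.69, 10.07, 9.67 and 9.95 in controls. The Sey groups lay far apart compared with their spread, while the lowest Leca4 mutant was just above the highest Leca4 control. The change was 0.86 ± 0.11 in Sey, a 1.81-fold rise with means of 9.92 ± 0.06 in mutants and 9.06 ± 0.04 in controls (SD, n = 4 and 3; adjusted p = 1.31e-05 in limma). In Leca4 it was 0.45 ± 0.11, a 1.36-fold rise with means of 10.29 ± 0.16 and 9.85 ± 0.20 in mutants and controls (SD, n = 3 and 4; adjusted p = 0.0196 in limma).

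The Leca4 call for Dll3 was lost without any one of Leca4 mutant replicate 1 or 3 or Leca4 control replicate 1 or 3 (adjusted p between 0.0618 and 0.106 in limma), and where only the Leca4 arrays were fitted (adjusted p = 0.107). In Leca2 mutants Dll3 read 10.31, 10.23, 9.88 and 10.21, against 10.10, 9.79 and 9.81 in controls. The groups overlapped, with a change of 0.26 ± 0.11 (95% interval 0.03 to 0.49; adjusted p = 0.644 in limma). The changes in Sey and Leca2 differed by 0.60 ± 0.15 (adjusted p = 0.0238 in limma), and those in Sey and Leca4 by 0.41 ± 0.15 (adjusted p = 0.0926), which misses the threshold. The Sey and Leca2 call was lost with sex as a term, where the difference was 0.57 (adjusted p = 0.15), and without Sey control replicate 1 or 2 or Leca2 control replicate 1 (0.0525, 0.0572 and 0.0904).

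Dll1, the Delta-type ligand that neighbouring progenitors are known to read, did not pass the test in any line. It averaged 9.52 ± 0.07 in Sey mutants and 9.47 ± 0.06 in Sey controls, and 10.75 ± 0.27 in Leca4 mutants and 10.63 ± 0.10 in Leca4 controls (SD). Its change was 0.05 in Sey (95% interval -0.19 to 0.29), 0.12 in Leca4 (-0.12 to 0.36) and -0.27 in Leca2 (-0.51 to -0.02). In Leca2 mutants it read 10.54, 10.40, 10.19 and 10.72, against 10.83, 10.56 and 10.80 in controls. Of the mutants, 3 lay below all controls, and replicate 4 lay within their range. The adjusted p were 0.81, 0.655 and 0.656 in Sey, Leca4 and Leca2.

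Among the receptors, Notch1, the receptor that radial glia are known for, rose in Sey. The Sey mutants read 11.13, 11.15, 10.87 and 10.63, against 10.33, 10.35 and 10.54 in Sey controls. All 4 mutants lay above all 3 controls, although replicate 4 stood only slightly above the highest of them. The means were 10.95 ± 0.25 in mutants and 10.41 ± 0.12 in controls (SD, n = 4 and 3), a 1.45-fold higher level in mutants (change 0.54 ± 0.13, SE; adjusted p = 0.00436 in limma). The other Notch1 probe set, 1418633_at, rose by 0.41 (adjusted p = 0.00433 in the limma fit over every probe set).

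In Leca4 the change of Notch1 was 0.12 ± 0.13 (95% interval -0.14 to 0.39; adjusted p = 0.681 in limma), and in Leca2 -0.09 ± 0.13 (-0.35 to 0.18; adjusted p = 1). The changes in Sey and Leca2 differed by 0.63 ± 0.18 (adjusted p = 0.0404 in limma), a call lost in 15 of the 26 alternative fits. Among them were the fit with sex as a term, where the difference was 0.66 (adjusted p = 0.152), and those without Sey mutant replicate 1, 2 or 3, Sey control replicate 1 or 2, Leca2 mutant replicate 1, 2 or 3, or Leca2 control replicate 1 or 3. The changes in Sey and Leca4 differed by 0.42 ± 0.18 (adjusted p = 0.138). Notch1 also lies on chromosome 2, with 392 tested genes between it and Pax6. Of the 20 tested neighbours of Notch1, the next 10 on each side, 3 rose in Sey, beside 10.7% of all genes. In Leca4 1 of them fell, beside 2.24%.

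Notch2, a further receptor of cortical progenitors, stood above its controls on every mutant array of Sey and Leca4 without passing the test. In Sey mutants it read 9.04, 9.49, 9.11 and 9.03, against 8.75, 8.88 and 8.96 in controls. In Leca4 mutants it read 10.27, 10.45 and 10.04, against 9.98, 9.81, 9.69 and 9.97 in controls. The changes were 0.30 ± 0.13 in Sey and 0.39 ± 0.13 in Leca4, with adjusted p of 0.128 and 0.107 in limma, and 0.18 in Leca2 (adjusted p = 0.948). The second Notch2 probe set, 1451889_at, gave changes of 0.03, -0.05 and 0.05 in Sey, Leca4 and Leca2, so the probe sets of this gene disagree.

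Notch3, known from vascular mural cells and also present in progenitors, rose in Leca4. It read 9.997, 9.80 and 9.85 in Leca4 mutants, against 9.29, 9.57, 9.29 and 9.504 in Leca4 controls. Every mutant lay above every control, 1.39-fold higher on average (9.88 ± 0.10 in mutants and 9.41 ± 0.15 in controls, SD, n = 3 and 4; change 0.47 ± 0.12, SE; adjusted p = 0.0209 in limma). The second Notch3 probe set, 1421964_at, rose by 0.40 (adjusted p = 0.0304 in the limma fit over every probe set). The call was lost without any one of Leca4 mutant replicate 1 or 3 or control replicate 1 or 3 (adjusted p between 0.0501 and 0.103).

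In Sey, Notch3 changed by -0.05 ± 0.12 and in Leca2 by -0.01 ± 0.12 (adjusted p = 0.808 and 1 in limma). The changes in Sey and Leca4 differed by -0.53 ± 0.16 (adjusted p = 0.042 in limma), and those in Leca4 and Leca2 by 0.48 ± 0.16 (adjusted p = 0.146). The Sey and Leca4 call was lost in 13 of 25 alternative fits, with sex as a term (adjusted p = 0.0786) and without Sey mutant replicate 1, 3 or 4, Sey control replicate 2 or 3, any Leca4 mutant, or Leca4 control replicate 1 or 3 among them. Of 12 mural cell markers tested beside it, 1 (Abcc9) rose in Leca4, where 3.39% of all genes rose. The summed level of the 13 markers on the array lay between 11.16 and 11.45 in Leca4 mutants and between 11.23 and 11.41 in Leca4 controls on the log2 scale, with Anpep at or below the filter level in both. The summed level of 14 endothelial markers lay between 11.47 and 11.73 in Leca4 mutants and between 11.49 and 11.66 in Leca4 controls. Of 10 microglia markers tested, 4 rose in Leca4 (Cx3cr1, Csf1r, C1qa and C1qc), the sum of the 11 on the array lying between 11.14 and 11.30 in mutants and between 10.80 and 10.98 in controls, with Ptprc at or below the level in both. The part of these cells in the changes of Notch3, Jag1 and Dll3 was not tested.

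**Figure D3:**
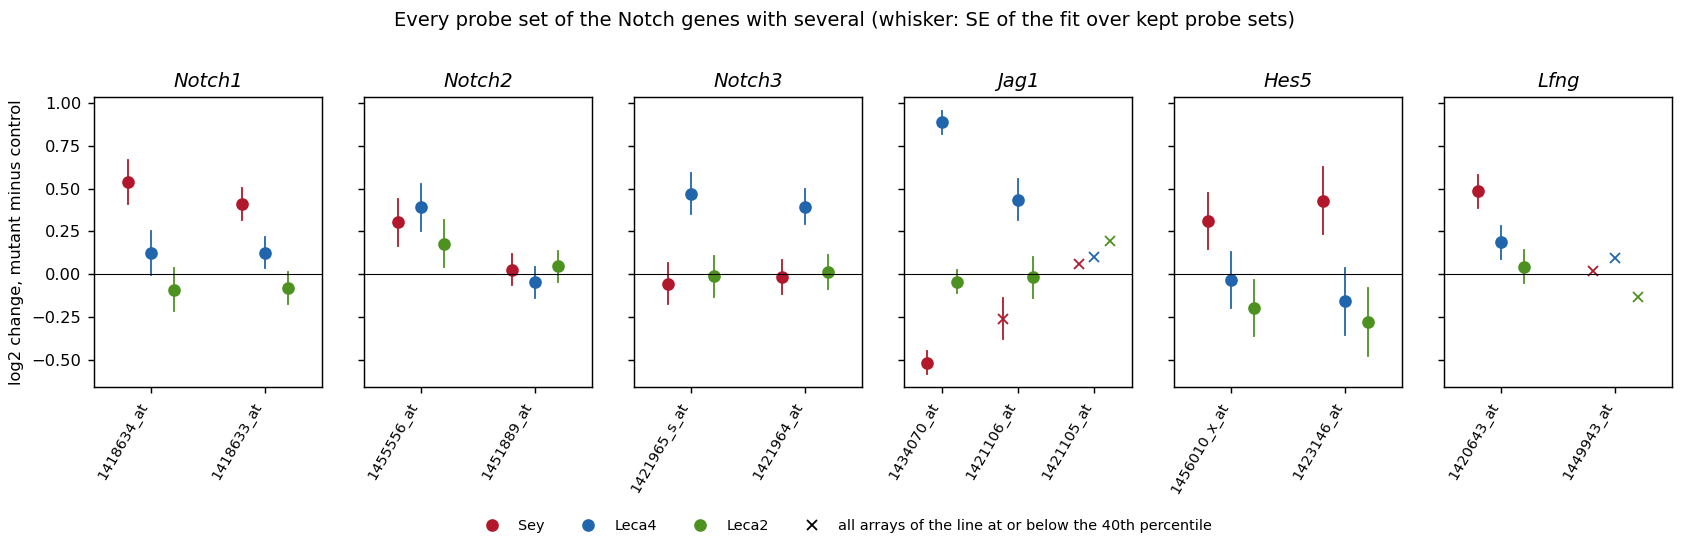
Log2 change, mutant minus control, of every probe set of the 6 members that have several, with points coloured by line, on the y axis, and whiskers for the SE. Crosses mark a line whose arrays all lay at or below the filter level. The probe sets of Notch1 and Notch3 move together, while the second probe set of Notch2 stays near 0 where the first is 0.30 in Sey and 0.39 in Leca4.

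Lfng, the glycosyltransferase that changes which ligands a Notch receptor responds to, rose in Sey. The mutants read 8.54, 8.55, 8.28 and 8.67, against 7.92, 8.19 and 7.97 in the controls. All 4 mutants lay above all 3 controls, with replicate 3 the nearest to them. The means were 8.51 ± 0.16 and 8.02 ± 0.14 in mutants and controls (SD, n = 4 and 3), 1.4-fold higher in mutants (change 0.48 ± 0.09, SE; adjusted p = 0.000904 in limma). In Leca4 the change was 0.19 ± 0.09 with overlapping groups (adjusted p = 0.305), and in Leca2 0.04 (adjusted p = 1). The changes in Sey and Leca2 differed by 0.44, which misses the threshold (adjusted p = 0.0535 in limma). This difference was called in 7 of 26 alternative fits, the replicate block and array weights among them (adjusted p = 0.0333 and 0.0353 in limma).

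The targets Hes1, Hes5 and Hey1, which encode basic helix-loop-helix repressors, were not called in any line. Hes1 averaged 8.30 ± 0.18 in Sey mutants and 8.40 ± 0.02 in Sey controls, 9.39 ± 0.28 in Leca4 mutants and 9.21 ± 0.23 in Leca4 controls, and 9.19 ± 0.25 in Leca2 mutants and 9.25 ± 0.16 in Leca2 controls (SD). Hey1 averaged 9.53 ± 0.09 in Sey mutants and 9.51 ± 0.07 in Sey controls, 10.63 ± 0.22 in Leca4 mutants and 10.56 ± 0.20 in Leca4 controls, and 10.39 ± 0.24 in Leca2 mutants and 10.60 ± 0.16 in Leca2 controls (SD). The difference of the means was smaller than the larger SD in each of these pairs. Hes1 changed by -0.10 in Sey (95% interval -0.41 to 0.20), 0.18 in Leca4 (-0.13 to 0.48) and -0.06 in Leca2 (-0.36 to 0.25). Hey1 changed by 0.02 in Sey (-0.25 to 0.28), 0.07 in Leca4 (-0.19 to 0.34) and -0.21 in Leca2 (-0.48 to 0.06). At their widest these intervals reach the size of the change of Lfng in Sey. Hes5 read 9.57, 9.74, 9.86 and 10.03 in Sey mutants, against 9.39, 9.41 and 9.66 in Sey controls, with 1 control inside the range of the mutants. Its change was 0.31 ± 0.16 in Sey (95% interval -0.03 to 0.65; adjusted p = 0.197 in limma), -0.03 in Leca4 and -0.20 in Leca2. With array weights the Sey change was 0.39 and called (adjusted p = 0.0363 in limma), and with sex as a term it was 0.15 (adjusted p = 0.644), the ends of the range of p over the 18 alternative fits. The other Hes5 probe set, 1423146_at, gave 0.43 in Sey (adjusted p = 0.157 in the limma fit over every probe set). The probe set chosen for Hes5, 1456010_x_at, has a suffix that the array maker uses where some probes resemble other sequences.

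The differences between lines were called for 2 of 10 members between Sey and Leca4 (Jag1 and Notch3), beside 12.8% of all genes, for 3 of 10 between Sey and Leca2 (Notch1, Jag1 and Dll3), beside 6.69%, and for 1 of 10 between Leca4 and Leca2 (Jag1), beside 2.38%. Jag1 was the member called in all 3 differences. The lines share no control arrays. Strain differs between Sey and the Leca lines, and strain and allele cannot be told apart in the differences that involve Sey. The distributions of array values differ between all 3 lines. Allele and anything else that came with a line, such as array processing, therefore cannot be told apart in any of these differences.

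The proneural genes are the transcription factors that Hes proteins repress and that activate Delta ligands. In Sey mutants the log2 change was -2.67 for Neurog1, -1.61 for Neurog2 and -2.62 for Neurod4, and all 3 fell (adjusted p = 5.95e-10, 1.52e-08 and 4.64e-11 in limma). All 4 mutant arrays read Neurod4 at or below the filter level (4.72 to 5.13, against 7.36 to 7.71 in the controls), which makes its level at least 4.38-fold lower. The Sey mutants read Neurog1 from 5.40 to 5.655, above the filter level but close to it. In Leca4 Neurog1 rose by 1.34 (adjusted p = 1.56e-05), while Neurog2 changed by -0.04 and Neurod4 by -0.43 (adjusted p = 0.915 and 0.0552). In Leca2 Neurog1 and Neurod4 fell, with changes of -1.43 and -1.49 (adjusted p = 3.55e-05 and 3.11e-06), and Neurog2 changed by -0.48 (adjusted p = 0.102). Averaging the probe sets of Neurog1 gave smaller changes, of -1.46 in Sey, 0.70 in Leca4 and -0.78 in Leca2, each of them still called. Insm1, a zinc finger gene of basal progenitors, rose by 0.44 in Sey (adjusted p = 0.00048), where averaging its probe sets gave 0.23 (adjusted p = 0.28). It changed by 0.17 in Leca4 and 0.13 in Leca2 (adjusted p = 0.265 and 0.877). Atoh1 was not called in any line.

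Of 53 other genes of the pathway tested, from a list of 58, 6 rose and 8 fell in Sey, 1 rose in Leca4, and 2 fell in Leca2, beside 20.2%, 5.62% and 0.477% of all genes called in either direction. Their median change was 0.01, 0.04 and 0.02 in Sey, Leca4 and Leca2. Among the ligands outside the members, 1 of 5 rose in Sey and in Leca4. It was Dlk1, a transmembrane protein related to Delta that lacks the part binding Notch, which rose by 1.59 ± 0.15 in Sey (7.81 ± 0.17 in mutants and 6.22 ± 0.27 in controls, SD, n = 4 and 3; adjusted p = 2.96e-07 in limma) and by 0.59 ± 0.15 in Leca4 (adjusted p = 0.0238). The Leca4 call was lost in 7 of 18 alternative fits, those without any Leca4 mutant or without Leca4 control replicate 1 or 4 among them (adjusted p up to 0.0769). In Leca2 mutants Dlk1 lay between 7.21 and 7.56, above all controls (6.61 to 7.15), with a change of 0.54 ± 0.15 that was not called (adjusted p = 0.176). The changes of Dlk1 in Leca4 and Leca2 differed by 0.05 ± 0.21 (adjusted p = 0.953 in limma). The 1 other receptor, Notch4, was not called.

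Of 16 genes for ligand and receptor processing, 2 rose in Sey, among them Pofut1, which adds fucose to Notch (change 0.33; adjusted p = 0.00179 in limma), and 2 fell, among them Psen2, a catalytic subunit of gamma-secretase (-0.29; adjusted p = 0.00246). Averaging a gene's probe sets gave 0.12 for Pofut1 and -0.14 for Psen2 (adjusted p = 0.176 and 0.0741). Of 11 inhibitors and turnover genes, 3 rose (Numb, Fbxw7 and Hes6) and 3 fell (Numbl, Dtx1 and Sel1l) in Sey. Beside these counts and those of the processing genes, 10.7% of all genes tested rose and 9.41% fell in Sey. Hes6, a Hes family member that opposes Hes1, rose by 0.33 (adjusted p = 0.000644), and Fbxw7, which marks the intracellular part of Notch for breakdown, by 0.28 (adjusted p = 0.00311). Dtx1, a ubiquitin ligase that acts on Notch, changed by -0.75 and fell (9.77 ± 0.08 in mutants and 10.52 ± 0.06 in controls, SD, n = 4 and 3; adjusted p = 4.72e-05), and Numbl, a Numb-like inhibitor, fell by 0.39 (adjusted p = 0.000398).

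In Leca2 1 of these 11 fell, Nrarp, a target and feedback inhibitor of Notch (10.75 ± 0.14 in mutants and 11.22 ± 0.08 in controls, SD, n = 4 and 3; change -0.48 ± 0.09, SE; adjusted p = 0.0139 in limma). The Nrarp call was lost in 6 of 19 alternative fits, those without Leca2 mutant replicate 3 or Leca2 control replicate 1 or 3 among them (adjusted p up to 0.0986 over all alternatives). Of 12 genes of the nuclear complex 1 fell in Sey, Rbpj, at -0.20 (adjusted p = 0.0351). Of 8 further targets, Hes7 and Id4 fell in Sey and Id4 in Leca2. Beside these counts, 9.41% of all genes tested fell in Sey and 0.303% in Leca2. Id4, an inhibitor of helix-loop-helix proteins, fell in both, with changes of -0.47 for Sey and -0.57 for Leca2 mutants (adjusted p = 0.00118 and 0.00377 in limma), with each mutant array below each control in both lines. Fitted on the Leca2 arrays alone, Id4 was not called there (adjusted p = 0.101).

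**Figure D4:**
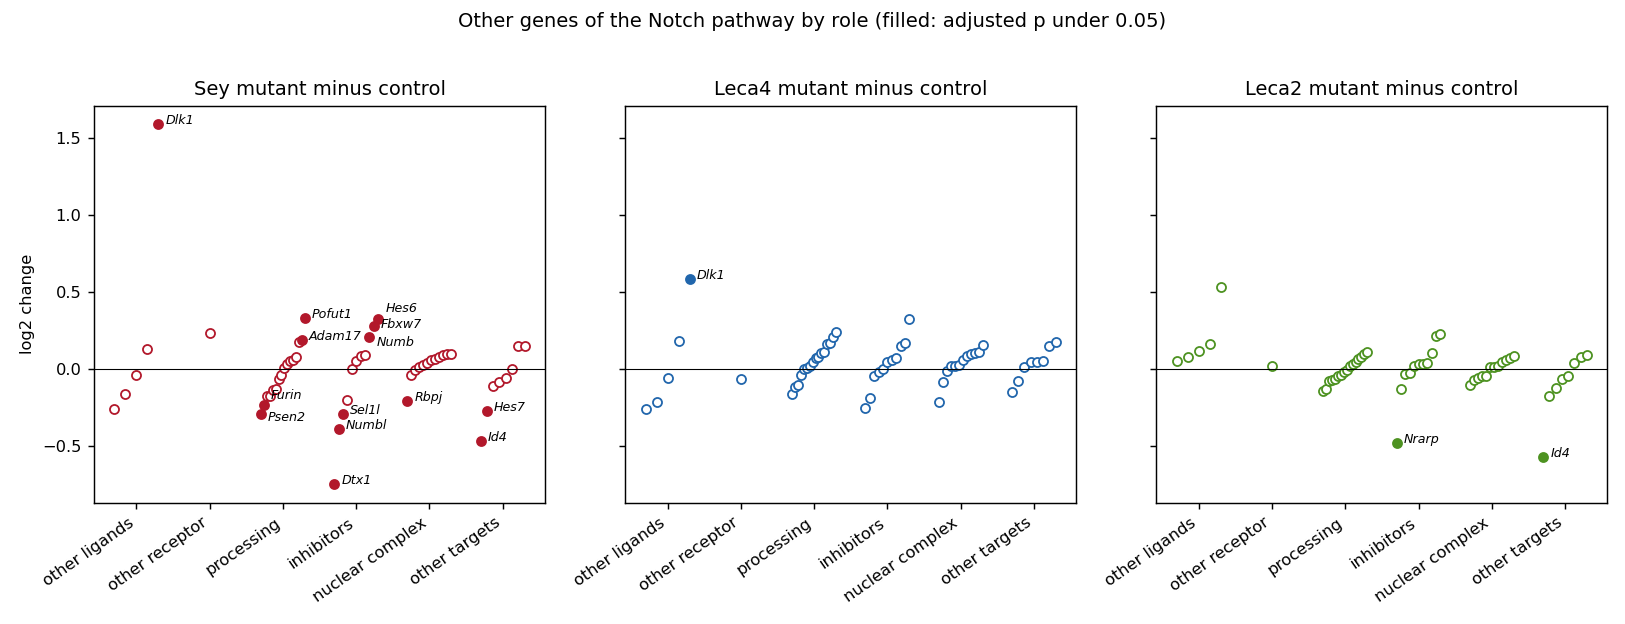
Log2 change, mutant minus control, of the 53 other pathway genes by their role, for Sey, Leca4 and Leca2, with called genes filled and named. Dlk1 stands highest in Sey at 1.59 and Dtx1 lowest there at -0.75.

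Other cell type markers moved in Sey beside the changes of Notch1, Dll3, Lfng and Jag1. The counts below stand beside 10.7% of all genes that rose and 9.41% that fell in Sey. In Leca4 these shares were 3.39% and 2.24%. Of 12 markers of the ventral telencephalon, 8 rose, and the summed level of the list lay between 13.45 and 14 in Sey mutants and between 10.79 and 11.09 in Sey controls. Dlx6 was at or below the filter level on every control. Of 11 projection neuron markers, 10 fell, with sums from 14.32 to 14.51 in mutants and from 15.02 to 15.07 in controls. Of 11 intermediate progenitor markers, 4 rose (Insm1, Gadd45g, Mfap4 and Rhbdl3) and 6 fell (Eomes, Neurog2, Sstr2, Elavl4, Neurod1 and Neurod4), with sums from 14.14 to 14.33 in mutants and from 14.61 to 14.62 in controls, and Neurod4 was at or below the level on every mutant. Radial glia markers split, 5 of 19 rising and 5 falling, with sums from 15.58 to 15.75 and from 15.73 to 15.77 in mutants and controls. Of 7 meningeal and mesenchymal markers tested, 3 rose (sums of the 11 on the array from 10.33 to 10.45 in mutants and from 9.47 to 9.65 in controls, with Col1a1, Lum and Twist1 at or below the level). In Leca4, where Notch3, Jag1 and Dll3 rose, 1 projection neuron marker rose and 2 fell, with sums from 15.08 to 15.22 in mutants and from 15.09 to 15.22 in controls. Of the 7 meningeal and mesenchymal markers, 2 rose in Leca4 (Prrx1 and Crabp2, by 0.95 and 1.17), but the median change of the 7 was -0.23. Col1a2, Col3a1, Dcn and Pdgfra changed by -0.42, -0.23, -0.32 and -0.23 and Foxc1 by 0.04, and none of these was called. The sums of the 11 on the array did not overlap, from 10.41 to 10.68 in mutants and from 9.94 to 10.24 in controls. Col1a1, Lum, Foxd1 and Twist1 were at or below the level on every Leca4 mutant, and Foxd1 and Twist1 on every Leca4 control. Of the 19 radial glia markers, 1 rose in Leca4 (Pax6) and 4 fell (Slc1a3, Tnc, Aldoc and Mfge8), with sums from 15.89 to 16.03 in mutants and from 16 to 16.08 in controls. The sums of the 11 intermediate progenitor markers overlapped in Leca4, from 14.78 to 14.97 in mutants and from 14.84 to 15 in controls. The part of these cells in the changes of the members was not tested in either line.

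The genes most like each member in pattern were read across the 21 arrays, after each value was set against the mean of the control arrays of its line. These values describe arrays that share lines and controls, and carry no p. For Jag1 the closest were B4galt5 (r = 0.961), Fam210b (r = 0.952) and Plppr1 (r = 0.951), and the most opposite was Gm13889 (r = -0.954). Gm13889 changed by 1.10 in Sey and -1.15 in Leca4. For Dll3 the closest were Mcm9, Cdkn2c and Fbln1 (r = 0.962, 0.961 and 0.955), and the most opposite Nlgn1 (r = -0.952).

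Lfng was closest to Dennd2a, Prr13 and Rpp25l (r = 0.92, 0.92 and 0.915) and most opposite to AI504432 (r = -0.919). Notch1 was closest to Nup188, Ttll4 and Nedd4 (r = 0.909, 0.887 and 0.886) and Notch3 to Spata13, Lrrc1 and Fras1 (r = 0.919, 0.887 and 0.883). Notch2 was closest to Heatr1 (r = 0.895), and Hes1 to Yap1 (r = 0.918), Hes5 to Eaf1 (r = 0.885) and most opposite to Rufy3 (r = -0.941). Dll1 and Hey1 were near each other, Hey1 being the closest gene to Dll1 (r = 0.905) and Dll1 the second closest to Hey1 after Psat1 (r = 0.91).

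Several members varied together between replicates of the same group, where the mutation is held fixed. Over the 45 pairs of members r ran from -0.125 to 0.92. With each value set against the mean of its group, Hes1 and Hey1 had r = 0.92 over the 21 arrays, Dll1 and Hey1 0.882, Dll1 and Hes5 0.848, Dll1 and Hes1 0.821 and Hes5 and Hey1 0.807. Hes1 and Hes5 had 0.68, where 540 other genes were closer to Hes1. Pairs with other members reached similar values, with 0.864 for Dll3 and Hey1, 0.826 for Notch3 and Hey1, 0.801 for Notch1 and Notch2 and 0.798 for Dll3 and Hes1. For Hes1, 1 of the 13849 other tested genes was closer than Hey1, and for Dll1, 7 were closer than Hey1. The median of r over all genes was 0.04 for Hes1 and 0.01 for Dll1, with 5th and 95th percentiles from -0.61 to 0.65 and from -0.67 to 0.66. The Leca2 mutant replicate 3 read lowest of its group for Dll1, Hes1, Hes5 and Hey1, and also for Notch3 (9.34) and Dll3 (9.88). Leca4 mutant replicate 2 read lowest of its group for Dll1, Hes1, Hes5, Notch3 and Dll3, and by little for Jag1. The same array read highest of its group for Notch1 (11.55) and Notch2 (10.45). In the fit with array weights these arrays had weights of 0.657 and 0.436, where weights ran from 0.436 to 1.92. The cause of this shared variation was not tested.

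**Figure D5:**
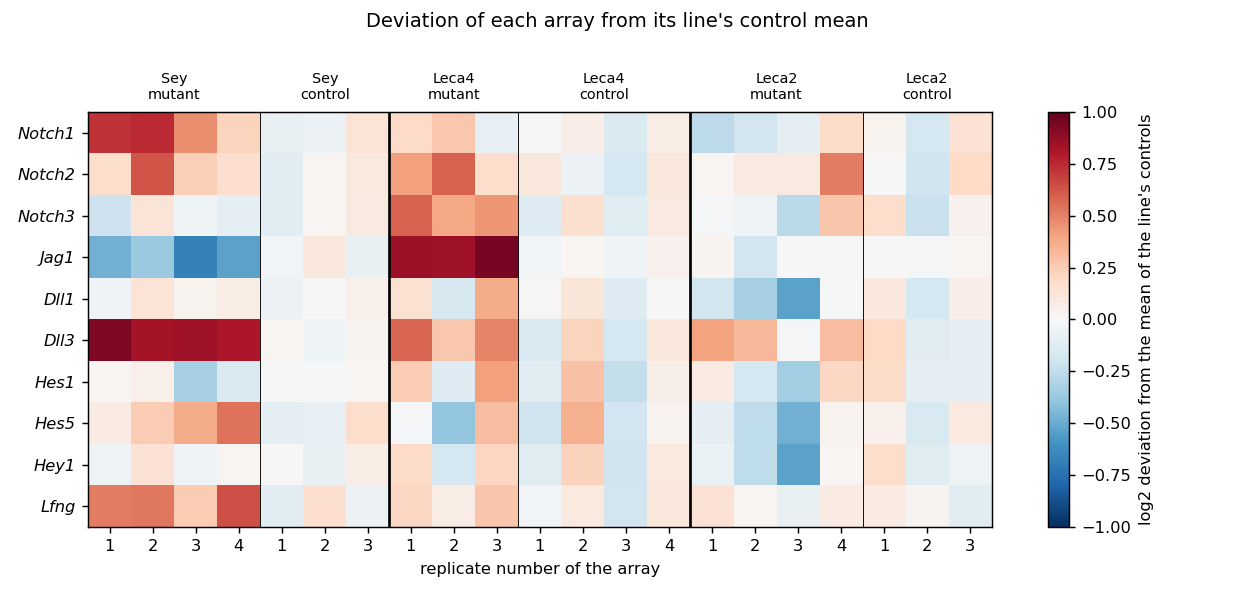
Deviation of each member on each of the 21 arrays from the mean of the control arrays of its line, in log2 units, with mutant arrays before control arrays in each line. Jag1 is low across the Sey mutants and high across the Leca4 mutants, and Dll1, Hes1, Hes5 and Hey1 shift together between replicates of a group.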

How the data were processed

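The extraction used an RNeasy Micro kit and the amplification MessageAmp Premier, per the labels. The deposited values are log2 expression values per probe set, made with RMA per the submitters' processing notes. For its version, its settings and the build nothing is given in the sources used here. The distributions of values are alike within a line and differ between lines.

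Probe sets were named from the platform annotation, with symbols updated through RefSeq. Of the 45101, 34945 named 1 gene, 932 several and 9160 none. Those above the 40th percentile of their array (the filter level, between 5.37 and 5.6) on at least 3 arrays were kept, and the one of a gene with the largest mean over all arrays stood for the gene. Differences were tested two-sided with limma 3.58.1 in R 4.3.3, in 1 model of the 6 groups over the 21 arrays with no covariate, and p-values were adjusted by Benjamini-Hochberg over the 13850 genes of each contrast. Probe sets were also fitted each on its own. The fold of a group with every array at or below the filter level is a bound against that level. The 95% intervals are those of the fit. The alternatives tried were the groups of a comparison fitted alone, a replicate block, a term for sex, no filter or a stricter one, every or the mean of the probe sets, trend and robust variance, array weights, quantile or median scaling over all arrays, a change of at least 1.4-fold, each array left out and, added after the data were seen, a fit without the male Leca2 mutants and all alternatives for genes that are no members. The pipeline was tested on simulated data.

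The members and lists were chosen with earlier results of these data known. Named were all members, Pax6, the proneural factors and the genes most and least correlated with each member. Up to 4 other pathway genes per line and direction, with the smallest p among those called, were also named. Hes7, Rbpj, Numb, Sel1l and the marker genes were named besides, after their values were seen. The number of arrays limits the precision. Genes without a probe set of their own are not analysed here.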

Additional observations from a re-analysis of the deposited data

Results flagged for a closer look

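In 3 lines, 25 genes were examined for single arrays that stand apart in each group of 4 arrays, which made 75 tests, of which chance flags about 1 in 20. There were 4. Notch2 in Sey mutant replicate 2 read 9.49, above 9.03 to 9.11 in the other mutants, a gap of 0.837 of the group's range. Notch2 in Leca2 mutant replicate 4 read 10.63, above 10.14 to 10.21 (0.853 of the range). Jag1 in Leca2 mutant replicate 2 read 7.87, below 8.06 to 8.09 (0.845 of the range), and Psen2 in Sey mutant replicate 3 read 6.42, below 6.53 to 6.56 (0.832 of the range).

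The change, mutant minus control, differed between lines in the test of the difference itself in limma for the following genes, each given as the first-named line minus the other. Between Sey and Leca4 the log2 difference was -1.40 for Jag1, -0.53 for Notch3, -4.01 for Neurog1, -1.57 for Neurog2, -2.19 for Neurod4, 1.01 for Dlk1, 0.33 for Fbxw7, -0.56 for Dtx1, -0.46 for Numbl, -0.61 for Id4 and -0.29 for Psen2. Between Sey and Leca2 it was -0.47 for Jag1, 0.63 for Notch1, 0.60 for Dll3, -1.24 for Neurog1, -1.13 for Neurog2, -1.13 for Neurod4, 1.05 for Dlk1, 0.29 for Hes6, 0.35 for Pofut1, -0.62 for Dtx1 and -0.43 for Numbl. Between Leca4 and Leca2 it was 0.93 for Jag1, 2.77 for Neurog1, 1.07 for Neurod4, 0.72 for Id4 and 0.62 for Nrarp. All Sey mutant arrays read Neurod4 at or below the filter level, so its differences with Sey depend on values near that level. The same holds for Neurog1, which the Sey mutants read between 5.40 and 5.655, just above that level. With the probe sets of Neurog1 averaged, its differences were -2.16 between Sey and Leca4, -0.68 between Sey and Leca2 and 1.49 between Leca4 and Leca2, each of them called.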

How the results depend on the processing

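Over the alternative fits, 2046 results kept their direction and side of the threshold, or a count within 1.5 times, 114 calls were lost and 14 gained, 51 counts moved and 28 values changed sign, all of them uncalled in both fits. The 4 Sey calls and the Leca4 call of Jag1 were kept in each of 18 alternative fits, sex as a term included, but with a change of at least 1.4-fold required 3 members counted in Sey, without Lfng. With only the groups compared, 400 genes were called in Leca4 and 27 in Leca2, with 0 other pathway genes in each. With a change of at least 1.4-fold there were 1057 genes in Sey and 330 in Leca4, 2 other pathway genes in Sey and 1 in Leca2, and 1 member in Leca4. Array weights gave 121 genes in Leca2, and leaving out its male mutants, chosen after seeing the data, gave 43 genes and 1 other pathway gene. Other pathway genes called numbered 9 in Sey, 2 in Leca4 and 1 in Leca2 with sex as a term, and 8 in Sey and 3 in Leca4 with the mean of probe sets. In Leca4 they were 2 with the stricter filter, with trend and robust variance and with quantile normalization, and 3 with array weights. With sex as a term, 1 member differed between Sey and Leca4 and 1 between Sey and Leca2, and without the filter or with every probe set on its own 1 differed between Sey and Leca4.

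Leaving out each array in turn gave between 2106 and 2563 genes in Sey, 512 and 749 in Leca4 and 40 and 61 in Leca2. Other pathway genes numbered between 9 and 13 in Sey, 0 and 2 in Leca4 and 1 and 2 in Leca2, and members between 1 and 3 in Leca4. Members that differed numbered between 1 and 2 for Sey and Leca4 and between 1 and 3 for Sey and Leca2. The last was 1 without Sey control replicate 1 (Dll3 adjusted p = 0.0525) or Leca2 control replicate 1 (0.0904).

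The labels do not say that samples with the same replicate number belong together. Deviations of same-numbered arrays correlated from 0.027 to 0.105 for Sey, from -0.44 to 0.103 for Leca4 and from -0.054 to 0.338 for Leca2. So few pairs per line cannot decide whether the numbers pair samples. With the replicate block, 2421, 614 and 48 genes were called in Sey, Leca4 and Leca2, with 4, 3 and 0 members and 10, 0 and 2 other pathway genes. Members that differed numbered 2, 3 and 1 for Sey and Leca4, Sey and Leca2, and Leca4 and Leca2.

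The values that changed sign lay near 0. Hey1 in Sey was -0.020 with the replicate block, -0.019 with sex as a term, where Dll1 was -0.011, and between -0.027 and 0.054 without 1 array. Hes5 in Leca4 was 0.021 with the replicate block, 0.028 with array weights and between -0.205 and 0.147 without 1 array, Neurog2 in Leca4 was 0.031 with array weights and between -0.10 and 0.071 without 1 array, and Dll1 in Leca4 lay between -0.0045 and 0.26. Notch3 in Leca2 was 0.00054 with the mean of probe sets, 0.056 with array weights, 0.0055 without the male mutants, where Notch1 was 0.044, and between -0.12 and 0.077 without 1 array. In Leca2, leaving out 1 array gave between -0.067 and 0.0057 for Jag1, between -0.147 and 0.036 for Hes1 and between -0.0075 and 0.084 for Lfng. The difference of Sey and Leca2 in Notch3 lay between -0.13 and 0.069. The cause was not tested for any of these. Signal near the filter level limits Neurod4 and Neurog1 in Sey and the second Jag1 probe set. The third Jag1 probe set and the second Lfng probe set, 1449943_at, were at or below that level on every array.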
